A study of Mus musculus with 8 samples.

Results

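The 6 genes of type IV collagen, Col4a1 to Col4a6, were followed across whole kidneys of 8 mice, with 1 array per mouse. They were taken by name, all 6 were found among the 22180 genes that the array names on their own, and each had 1 probe set. All mice were 2 months old. The 3 mice labelled Col4a3-/- (single mutant) lacked Col4a3. The 3 labelled Col4a3-/-OPN-/- (double mutant) lacked Col4a3 and osteopontin, a secreted matrix protein and cytokine. The 2 wild type mice carried neither deletion. Loss of Col4a3 models Alport syndrome, a hereditary disease of the glomerular filter, and the double mutant was made to ask what osteopontin adds to it. Neither the strain background nor the deleted exons of Col4a3 are stated in the labels.

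Type IV collagen is the sheet-forming collagen of basement membranes. Its alpha chains, each encoded by 1 gene, assemble in the cell as triple helices of fixed composition. Helices of the alpha1 and alpha2 chains lie in nearly all basement membranes, including those of vessels, tubules and the mesangium. Helices of the alpha3, alpha4 and alpha5 chains form the mature glomerular basement membrane, where they are made by podocytes, the filtering epithelial cells. Whether the signal of these chains in whole kidney comes from podocytes alone was not tested. Alpha5 with alpha6 occurs in Bowman's capsule and around smooth muscle. In Alport kidneys the alpha3-alpha4-alpha5 helix cannot form, and the glomerular membrane keeps the alpha1 and alpha2 chains.

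The 6 genes lie in pairs whose 5' ends face each other, and sequences around the facing starts are shown because the results below compare partners. Promoter windows of 300 bases, 250 before and 50 after a transcript start, were taken from RefSeq on GRCm38.p6 for 5 of the 6 chains, namely Col4a1, Col4a2, Col4a4, Col4a5 and Col4a6. On chromosome 8 the Col4a1 and Col4a2 windows share 78 bases (chr8:11312777-11312854), which are in capitals in both and are reverse complements. The 5' ends of the transcripts used for these windows overlap by 22 bases. The annotated genes overlap further, since Col4a1 reaches 11312889 and Col4a2 begins at 11312805. On chromosome 1, capitals in the Col4a4 window mark the 71 bases between the transcript start used for it (82586849) and the annotated start of Col4a3 (82586921). The annotated Col4a4 gene reaches 82587034, beyond the start of Col4a3, so the annotated genes overlap and these bases do not separate them.
Col4a1, chr8:11312777-11313076, minus strand: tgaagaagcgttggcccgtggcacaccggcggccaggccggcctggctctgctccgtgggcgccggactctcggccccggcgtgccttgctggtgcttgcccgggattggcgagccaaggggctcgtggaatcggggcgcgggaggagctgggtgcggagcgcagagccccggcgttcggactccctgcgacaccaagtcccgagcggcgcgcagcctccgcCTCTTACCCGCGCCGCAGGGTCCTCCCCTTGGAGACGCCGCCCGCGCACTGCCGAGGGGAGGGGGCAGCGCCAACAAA
Col4a2, chr8:11312555-11312854, plus strand: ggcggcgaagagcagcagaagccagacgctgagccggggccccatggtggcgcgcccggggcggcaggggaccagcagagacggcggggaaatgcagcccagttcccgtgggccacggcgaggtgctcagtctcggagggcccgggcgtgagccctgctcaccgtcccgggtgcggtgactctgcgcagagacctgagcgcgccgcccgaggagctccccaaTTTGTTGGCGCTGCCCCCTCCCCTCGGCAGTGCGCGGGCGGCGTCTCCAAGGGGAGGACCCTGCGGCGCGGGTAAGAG
Col4a4, chr1:82586800-82587099, minus strand: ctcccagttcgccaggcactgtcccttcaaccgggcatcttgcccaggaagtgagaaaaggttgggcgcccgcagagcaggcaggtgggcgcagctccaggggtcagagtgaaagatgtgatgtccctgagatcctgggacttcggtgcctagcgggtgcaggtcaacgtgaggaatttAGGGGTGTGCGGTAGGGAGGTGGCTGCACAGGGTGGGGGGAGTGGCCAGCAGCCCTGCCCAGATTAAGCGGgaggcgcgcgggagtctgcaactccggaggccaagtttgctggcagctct
On the X chromosome the starts in the Col4a5 and Col4a6 windows (chrX:141475169-141475468 and chrX:141474027-141474326) are 1342 bases apart. Guanine and cytosine made up 74.0% of the Col4a1 window and 73.7% of the Col4a2 window, 63.3% of that of Col4a4, 52.7% of that of Col4a5 and 48.3% of that of Col4a6, against a median of 52.7% over 32851 windows. Searched on both strands, the letters CCAAT occurred in 3 of the 5 windows (Col4a1, Col4a2 and Col4a5) and in 37.4% of all windows. GGGCGG occurred in 4 of the 5, all but Col4a4, and in 35.7% of all windows. TATAAA, found in 13.6% of all windows, and TAATTA, found in 5.29%, occurred in none of the 5.

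Values are log2 expression as deposited, where a difference of 1 is a doubling of signal. Genes were tested if their mean over the 8 arrays was above 6.64, below which 75% of probe sets lay. This left 7145 genes, and 5 of the 6 chains passed. Col4a6, with a mean of 5.31, did not. The 2 wild type arrays and 1 array of each mutant (single mutant 2 and double mutant 3) were read as male. On these, Xist, the RNA of the silenced X chromosome, measured at most 4.64, against at least 8.85 on the other 4 arrays, and the Y-linked gene Eif2s3y measured at least 7.69, against at most 4.56. Comparisons of the chains and of the gene lists with wild type are therefore given without and with a term for sex, which was estimated from the mutants. Single mutant 2 stood apart from its group, with correlations of 0.865 and 0.839 with single mutants 1 and 3 over the tested genes, against 0.959 between those. Its highest correlation was 0.948, with double mutant 3, the other mutant read as male. Double mutant 3 in turn had 0.895 and 0.908 with double mutants 1 and 2, against 0.965 between those. Kidney genes were high on every array (Umod, uromodulin of the loop of Henle, at 12.19 or more and Slc34a1, the phosphate carrier of the proximal tubule, at 11.83 or more). The list means of adrenal and skeletal muscle markers stayed between 4.74 and 5.25, near the array medians of 5.18 to 5.25. Of podocyte markers, Nphs1, which encodes nephrin of the slit diaphragm, measured 5.96 to 7.31.

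**Figure D1:**
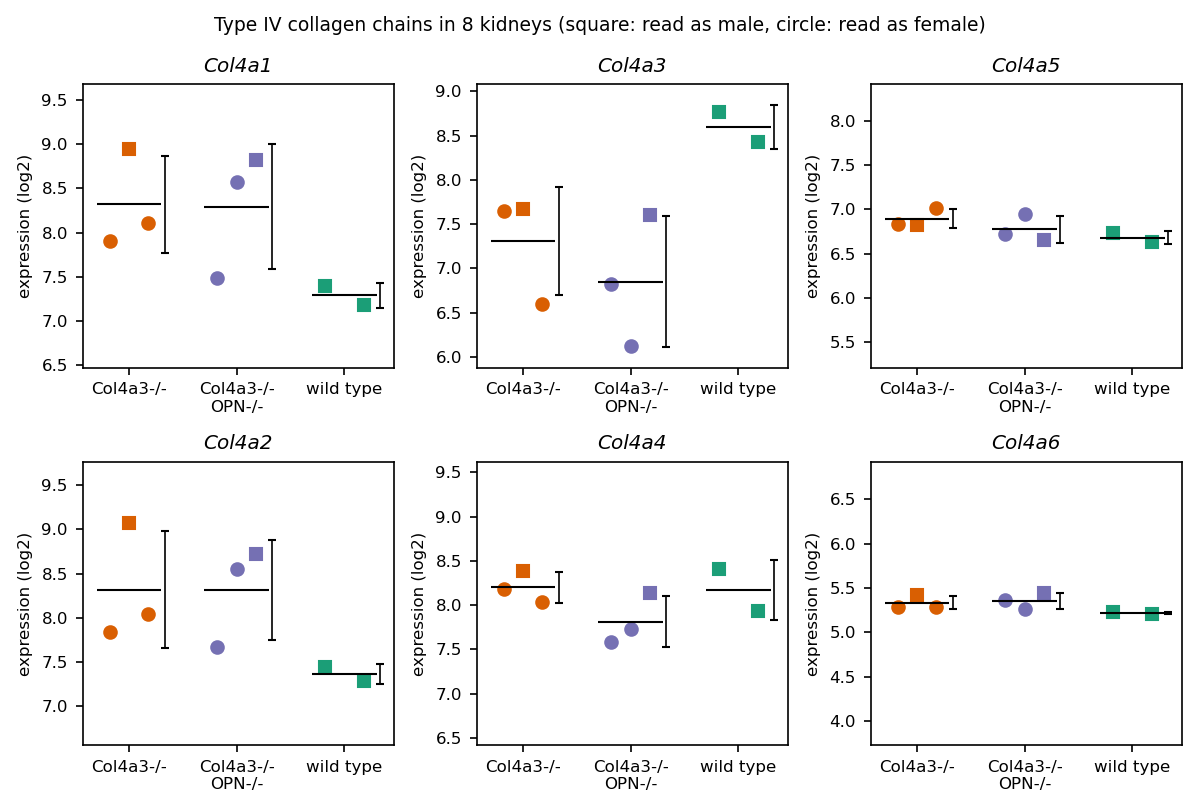
Expression (log2) of the 6 type IV collagen genes on each array of the single mutant, double mutant and wild type groups, each panel spanning the same range of 3.2. Points are arrays, lines are group means and bars are SDs (n = 3, 3 and 2). Col4a1 and Col4a2 were above wild type and Col4a3 below it on all 6 mutant arrays.

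Transcripts of the widespread alpha1 and alpha2 chains were about 2-fold more abundant by signal in kidneys lacking Col4a3, and those of the deleted alpha3 chain gave 2.86-fold less signal. The partner chains of the glomerular membrane, Col4a4 and Col4a5, were within 0.17 log2 units of wild type as a mean of both mutants. Their 95% intervals, -0.62 to 0.29 and -0.14 to 0.44, did not exclude larger changes. These are whole kidneys, in which fewer cells of a type and less RNA per cell cannot be told apart. Without a term for sex none of these differences passed the test over all genes. With that term, Col4a1 and Col4a2 were called higher in each mutant, where 7.31% of genes were in the single and 6.4% in the double mutant. Over both mutants that fit rests on 1 male of each, and all these calls ended when wild type 2 was left out.

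Col4a3, the deleted gene, is on chromosome 1 (82586921 to 82722059, GRCm38.p6) and encodes the alpha3 chain. It measured 7.65, 7.67 and 6.60 in single mutants 1 to 3 and 6.82, 6.13 and 7.60 in double mutants 1 to 3, against 8.77 and 8.42 in wild type 1 and 2. All 6 mutant values lay below both wild type values. Group means were 7.31 ± 0.61 in the single mutant and 6.85 ± 0.74 in the double mutant (SD, n = 3 each), against 8.60 ± 0.25 in wild type (SD, n = 2). The probe set therefore kept signal in the mutants, where its lowest value, 6.13, was above the highest array median, 5.25. Where its probes lie relative to the deletion was not known, so it is a partial check of the labels only. The mean of both mutants minus wild type was -1.52 (SE 0.41, adjusted p = 0.0790 in limma), and 37 of 7145 tested genes had a larger decrease. Adjusted for sex, the difference was -0.96 (SE 0.37, adjusted p = 0.0837), and 605 genes had a larger decrease. Among males alone it was also -0.96 and passed (adjusted p = 0.0209 in limma), as did 30% of tested genes, with 7.67 in the single and 7.60 in the double mutant against 8.77 and 8.42 in wild type. The lowest values were those of female mutants (6.13, 6.60 and 6.82), while female single mutant 1 measured 7.65, as high as the mutant males.

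Col4a1, on chromosome 8 (11198423 to 11312889), encodes the alpha1 chain, which enters the common helix as a pair beside 1 alpha2 chain. It measured 7.91, 8.94 and 8.11 in single mutants 1 to 3 and 7.49, 8.57 and 8.82 in double mutants 1 to 3, against 7.39 and 7.19 in wild type. Every mutant was higher than both wild type mice, although double mutant 1 exceeded the nearer of them by little. Means were 8.32 ± 0.55 and 8.29 ± 0.71 (SD, n = 3 each) in the single and double mutant and 7.29 ± 0.14 (SD, n = 2) in wild type. Its partner Col4a2 (chromosome 8, 11312805 to 11449287), the alpha2 chain, measured 7.84, 9.07 and 8.05 in single mutants and 7.68, 8.56 and 8.72 in double mutants, against 7.45 and 7.29 in wild type. The highest and lowest mutants were the same animals for both genes, single mutant 2 and double mutant 1.

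Without a term for sex, the difference of Col4a1 was 1.03 (SE 0.43, limma adjusted p = 0.203) in the single and 1.003 (SE 0.43, adjusted p = 0.226) in the double mutant. For Col4a2 these differences were 0.95 (SE 0.41, adjusted p = 0.218) and 0.95 (SE 0.41, adjusted p = 0.235). With the term, Col4a1 rose by 1.60 (SE 0.34, adjusted p = 0.0161) and 1.58 (SE 0.34, adjusted p = 0.0183), and Col4a2 by 1.53 (SE 0.31) in both (adjusted p = 0.0144 and 0.0158). Over both mutants the sex-adjusted rise was 3.01-fold for Col4a1 (adjusted p = 0.0113) and 2.88-fold for Col4a2 (adjusted p = 0.0096), and 107 and 119 tested genes had a larger increase. Since wild type mice were all male, these adjusted values over both mutants equal the difference among males, 1.59 and 1.53, which rests on 1 male of each mutant. Leaving out single mutant 2 ended the calls over both mutants (1.52, adjusted p = 0.0648, and 1.27, adjusted p = 0.0666), as did leaving out wild type 2 (adjusted p = 0.0787 and 0.0700).

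Col4a4, on chromosome 1 (82448419 to 82587034), encodes the alpha4 chain and is the head-to-head partner of Col4a3. Its values were 8.18, 8.39 and 8.04 in single mutants and 7.58, 7.73 and 8.14 in double mutants, against 8.41 and 7.93 in wild type. The groups overlapped, and the lowest values were those of the female double mutants 1 and 2. Its differences from wild type were 0.03 (SE 0.22, 95% interval -0.48 to 0.54) in the single and -0.36 (SE 0.22, interval -0.87 to 0.15) in the double mutant, and neither passed. The mean of both mutants differed by -0.17 without and by 0.09 with the term for sex, so that the sign depended on it.

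Col4a5 lies on the X chromosome (141475370 to 141689236) and encodes the alpha5 chain, the one mutated in most human families with Alport syndrome. It measured 6.84, 6.82 and 7.02 in single mutants and 6.72, 6.94 and 6.66 in double mutants, against 6.73 and 6.63 in wild type. All single mutants were above both wild type mice, by little, as for 19.3% of tested genes, while the double mutant overlapped with wild type. The single mutant differed by 0.21 (SE 0.14, 95% interval -0.11 to 0.54) and the double mutant by 0.09 (SE 0.14, interval -0.23 to 0.42), without passing. Col4a6, also on the X chromosome (141165403 to 141474095), encodes the alpha6 chain, and its signal lay near the array medians. It measured 5.29, 5.42 and 5.29 in single mutants and 5.36, 5.26 and 5.44 in double mutants, against 5.23 and 5.21 in wild type. The 8 values spanned 0.23, the least of the 6 chains, and all mutants were above wild type, as for 9.24% of all genes. In a fit of all 22180 genes without the filter, Col4a6 differed by 0.13 (SE 0.065, adjusted p = 0.385 in limma) over both mutants, where 0.284% of genes were called, and did not pass with the term for sex either (0.21, SE 0.057, adjusted p = 0.0737).

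Counted together, 0 of the 5 tested chains passed in limma in the single mutant, where 0.028% of all tested genes were called, or in the double mutant, where 0.084% were. Over both mutants the count was 0 of 5, against 2.1% of genes. At an unadjusted p under 0.05, 2 of the 5 were reached in the single mutant (23.2% of genes), 2 in the double mutant (21.6%) and 3 over both (27.3%). In the fit with sex, 2 of 5 chains were called higher, where 7.31%, 6.4% and 8.69% of genes were called higher in the single mutant, the double mutant and over both. None of the 5 was then called lower, where 19.9%, 17.8% and 22.9% were. Of the 5, 2 lay above wild type on every mutant array and 1 below it, while 13.1% of tested genes lay wholly above and 21.4% wholly below. The median difference of all tested genes was -0.07 without and -0.15 with the term for sex over both mutants. Of these genes, 41.7% lay above wild type over both mutants without the term and 38.7% with it. The comparisons of each mutant with wild type share the same 2 wild type arrays.

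**Figure D2:**
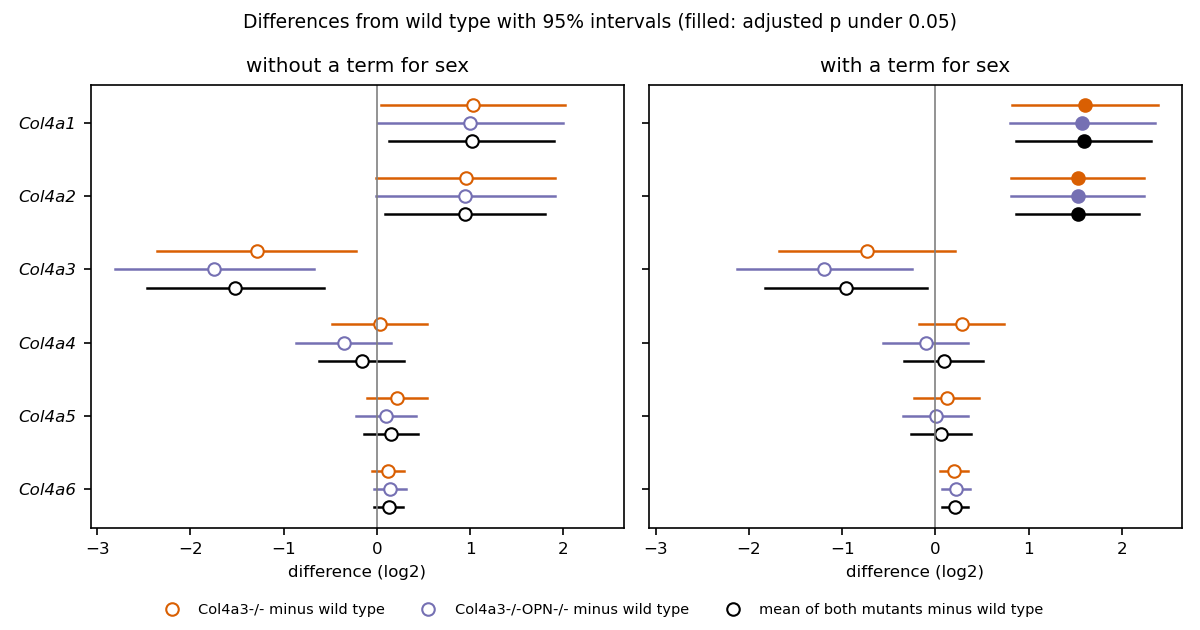
Differences from wild type (log2) with 95% intervals for the single mutant, the double mutant and the mean of both, without (left) and with (right) a term for sex. Filled points passed at an adjusted p under 0.05. Col4a6 is from the fit without a filter. Only Col4a1 and Col4a2 passed, and only with the term for sex.

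The double mutant was set against the single mutant to ask whether loss of osteopontin goes with other levels of the chains in kidneys that all lack Col4a3. None of the 6 chains separated the groups, whose values overlapped for each, while 2.02% of tested genes lay wholly higher and 3% wholly lower in the double mutant. Col4a1 differed by -0.03 (SE 0.38, 95% interval -0.91 to 0.86) and Col4a2 by -0.0008 (SE 0.37, interval -0.86 to 0.86), so that a difference of up to about 0.9 in either direction was not excluded by these intervals. Col4a3 was lower by 0.46 in the double mutant, a difference of -0.46 (SE 0.41, interval -1.41 to 0.50). Col4a4 had a difference of -0.39 (SE 0.20, interval -0.84 to 0.07), and 88 of 7145 genes had a larger decrease. Adjusted for sex, the Col4a4 interval was -0.73 to -0.04 and its adjusted p 0.993 in limma. Col4a5 differed by -0.12 (SE 0.13) and Col4a6, without the filter, by 0.02 (SE 0.065). In limma 0 of 5 chains and 0% of genes were called with or without the term. At an unadjusted p under 0.05, 0 of 5 chains were reached without it (1.46% of genes) and 1, Col4a4, with it (3.82%).

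The chains were also compared between the sexes of the mutants. The male mutants measured 8.94 and 8.82 for Col4a1, against 7.49 to 8.57 in the 4 females. As fitted, female minus male was -0.86 (SE 0.27, adjusted p = 0.0811 in limma) for Col4a1, -0.87 (SE 0.25, adjusted p = 0.0634) for Col4a2, -0.84 (SE 0.32, adjusted p = 0.135) for Col4a3 and -0.38 (SE 0.16, adjusted p = 0.152) for Col4a4. The X-linked Col4a5 had 0.14 (SE 0.12, adjusted p = 0.473). None of the 5 passed, where 10.2% of tested genes did. Whether the difference between the mutants depends on sex could not be judged, since each mutant has 1 male. The test of that interaction called 0 of 5 chains and 0% of genes, with an estimate of -0.58 (SE 0.67) for Col4a3 and of 0.52 (SE 0.51) for Col4a2. The 2 male mutants include single mutant 2, and an effect of sex and of these 2 animals cannot be told apart.

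The partners that face each other were then compared on each array. Col4a1 minus Col4a2 stayed between -0.19 and 0.10 on all 8 arrays, a span of 0.29, although each gene alone spanned 1.75 and 1.78. Col4a3 minus Col4a4 was -0.53, -0.72 and -1.43 in single mutants and -0.76, -1.60 and -0.54 in double mutants, against 0.36 and 0.49 in wild type, so that all 6 mutants lay below both wild type arrays. The deleted Col4a3 alone lay below wild type on all 6 mutants, while Col4a4 overlapped with it. That order therefore follows largely from the values of Col4a3 and is no separate result about the partners. Col4a5 minus Col4a6 was between 1.21 and 1.73 in mutants and 1.42 and 1.50 in wild type, which overlap. These are differences in signal between probe sets, whose change across arrays can be read but whose size is not a ratio of transcripts. Over the 6 mutants, Col4a1 and Col4a2 were correlated (Pearson's r = 0.978, exact permutation p = 0.0028, the smallest that 6 arrays allow, 0.0083 when adjusted over the 3 pairs). Spearman's rho was 1.0 (exact permutation p = 0.0028, adjusted 0.0083), and r was 0.997 without the 2 arrays farthest from the median. For Col4a3 and Col4a4, r was 0.766 (exact permutation p = 0.10, adjusted 0.10) and rho 0.829 (exact p = 0.0583, adjusted 0.0583), with r at 0.965 without the 2 farthest arrays. For Col4a5 and Col4a6, r was -0.784 (exact permutation p = 0.0778, adjusted 0.10) and rho -0.841 (exact p = 0.0444, adjusted 0.0583), with r at -0.635 without the 2 farthest. Either sex holds too few mutants for a value of its own. The permutations treat the 6 mutants as alike, although these differ in genotype and sex. Genes outside the family also ran close to the mean of Col4a1 and Col4a2 over the 8 arrays (Rpl35, Pearson's r = 0.985). The correlation of Col4a1 with Col4a2 is therefore not shown to be particular to facing partners.

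**Figure D3:**
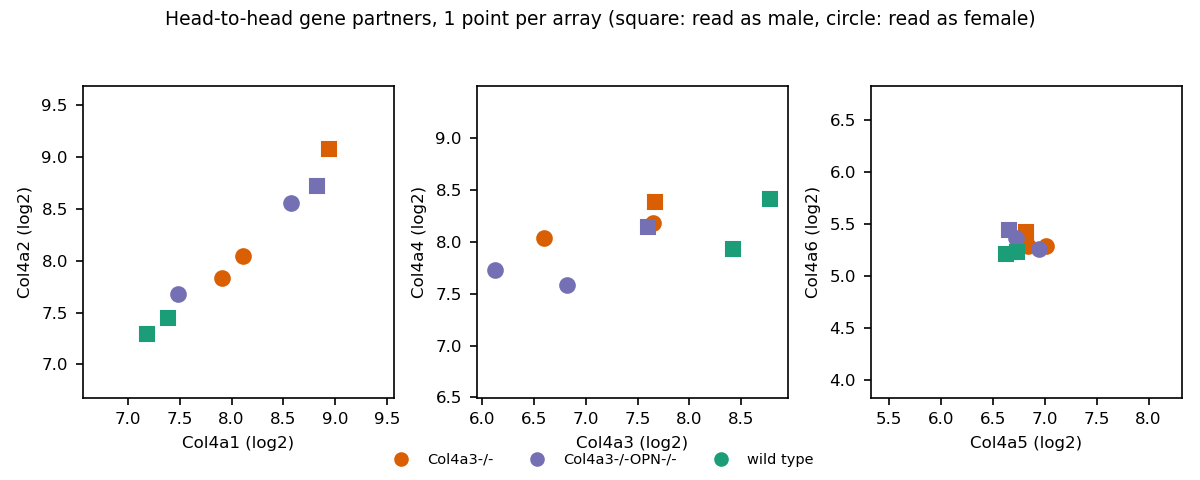
Expression (log2) of each head-to-head partner against the other, 1 point per array, on axes that all span 3 log2 units. Col4a1 and Col4a2 fall along 1 line through all groups, all mutants lie left of wild type for Col4a3 while for Col4a4 only double mutants 1 and 2 lie below both wild type arrays, and Col4a5 and Col4a6 stay within a narrow cloud.

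The balance of glomerular to widespread chains was followed per array as the mean of Col4a3, Col4a4 and Col4a5 minus the mean of Col4a1 and Col4a2. It was -0.32, -1.38 and -0.86 in single mutants and -0.54, -1.63 and -1.30 in double mutants, against 0.55 and 0.42 in wild type. Every mutant lay below wild type, with means of -0.85 ± 0.53 and -1.16 ± 0.56 (SD, n = 3 each) in the single and double mutant against 0.49 ± 0.09 (SD, n = 2). With the deleted Col4a3 left out of the mean the order held, at -0.36 to -1.40 in single and -0.43 to -1.37 in double mutants against 0.15 and 0.04 in wild type. Col4a1 and Col4a2 lay wholly above wild type and Col4a3 wholly below it, while Col4a4 and Col4a5 overlapped with it over both mutants. The order therefore follows largely from those chain values and is no separate result, with or without Col4a3. The single and double mutants overlapped.

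Over the 8 arrays the genes whose values ran closest to the mean of Col4a1 and Col4a2 were Col6a3, a chain of microfibrillar collagen VI (Pearson's r = 0.986), Col15a1, a basement membrane collagen (0.986), the ribosomal gene Rpl35 (0.985), Itga9, an integrin chain (0.984), and Chmp4b of the membrane-scission machinery (0.983). With group means removed these were 0.970 to 0.976. Col15a1, for one, measured 6.70, 8.15 and 6.77 in single mutants and 6.46, 7.57 and 7.56 in double mutants, against 5.90 and 5.85 in wild type, with single mutant 2 highest as for Col4a1. For Col4a3 the closest were Cdc37l1 (r = 0.973), Ttc39c (0.963), Trmt1 (0.954), Secisbp2l (0.950) and Fmnl1 (0.948). For the mean of Col4a4 and Col4a5 they were Polg (r = 0.953), Sec16a (0.946), Ints1 (0.941), Abhd17a (0.916) and Glis3 (0.904). These correlations describe 8 arrays that share the genotype groups, the sexes and single mutant 2, and were the highest of 7145.

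Other components of basement membranes were then examined. Of 18 tested (of 24 measured), 15 were above wild type over both mutants, where 41.7% of tested genes were, with a median of 0.52. Of the 18, 1 was called higher and 0 lower, where 0.868% of genes were called higher and 1.23% lower. The called gene was Lamc1, the gamma1 chain of most laminins, at 0.82 (SE 0.14, adjusted p = 0.0392 in limma). It measured 8.27, 8.49 and 8.29 in single mutants and 8.06, 8.15 and 8.28 in double mutants, against 7.61 and 7.25 in wild type. This call, like every other without the term for sex over both mutants, ended when either wild type array was left out. With the term for sex 7 were called higher, where 8.69% of genes were, and 1 lower, where 22.9% were. Those called higher were Col15a1 at 1.98, Frem1, a matrix protein of the epithelial basement membrane, at 1.76, Col18a1, the source of endostatin, at 1.35, Lama5, a laminin chain of the mature glomerular membrane, at 1.11, Lama2 at 1.07, the proteoglycan agrin (Agrn) at 1.04 and Lamc1 at 0.95. Tinag, a tubular basement membrane protein, fell by 0.92, a difference of -0.92. Between the double and single mutants 0 of the 18 passed, and the median was -0.02.

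Genes that modify and export collagen chains showed no shared direction. Of 14 tested, 6 were above wild type over both mutants, the median was -0.05 and none passed. The 4 with the largest differences were Crtap, a subunit of the prolyl 3-hydroxylase complex, at -0.67, Serpinh1, the collagen chaperone HSP47, at 0.55, Colgalt1, a collagen galactosyltransferase, at 0.51, and Mia2, an export factor, at -0.34. Adjusted for sex, 1 of the 14 was called higher, where 8.69% of genes were, and 1 lower, where 22.9% were. Colgalt1 rose by 0.72 (adjusted p = 0.0256 in limma). P3h2, a prolyl 3-hydroxylase that acts on type IV collagen, had a difference of -1.08 (SE 0.18, adjusted p = 0.0074). Among 3 tested crosslinking enzymes, Lox differed by 1.79 and Loxl1 by 1.12. With the term for sex both were called higher (1.96 and 1.32), where 8.69% of genes were. Pxdn, the peroxidase that makes the sulfilimine bonds of type IV collagen, differed by 0.56 (SE 0.30) and by 0.91 (SE 0.30, adjusted p = 0.0523) with the term, without passing.

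A list of receptors for collagens and other matrix proteins, with receptor partners, had 8 tested genes. All 8 lay above wild type over both mutants, with a median of 0.54 against -0.07 for all tested genes. Of these, 1 was called, where 0.868% of genes were called higher. This was Itgb1, the beta1 chain shared by the collagen-binding integrins, at 0.65 (SE 0.12, adjusted p = 0.0453), with 9.61, 9.82 and 9.64 in single and 9.71, 9.88 and 9.76 in double mutants against 9.001 and 9.17 in wild type. With the term for sex 7 of 8 lay above wild type, all but Dag1, dystroglycan (-0.27), and Itgb1 (0.71), Itgav (0.86) and Itga3 (0.61) rose, while Ddr2, a receptor kinase for collagen, differed by 1.34 (adjusted p = 0.0505). Of 7 tested genes for breakdown of collagen and its control, 6 were above wild type, with a median of 1.10, and none passed. In the fit with sex, 5 of 7 were called higher, where 8.69% of genes were, namely the protease Ctss at 3.23, Mmp14 at 2.13, Mmp2, a gelatinase, at 1.99, Mrc2, which takes up collagen, at 1.51 and Ctsl at 0.58. Of 10 tested regulators 9 were above wild type, where 41.7% of tested genes were, with a median of 0.36. Tgfb1, a cytokine that induces matrix genes, differed by 1.21 and its target Ccn2 by 1.20 without passing, and with the term Tgfb1 (1.63), Ccn2 (1.54) and the receptor Tgfbr1 (1.26) were called. Between the double and single mutants 0 genes of any of these lists were called.

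**Figure D4:**
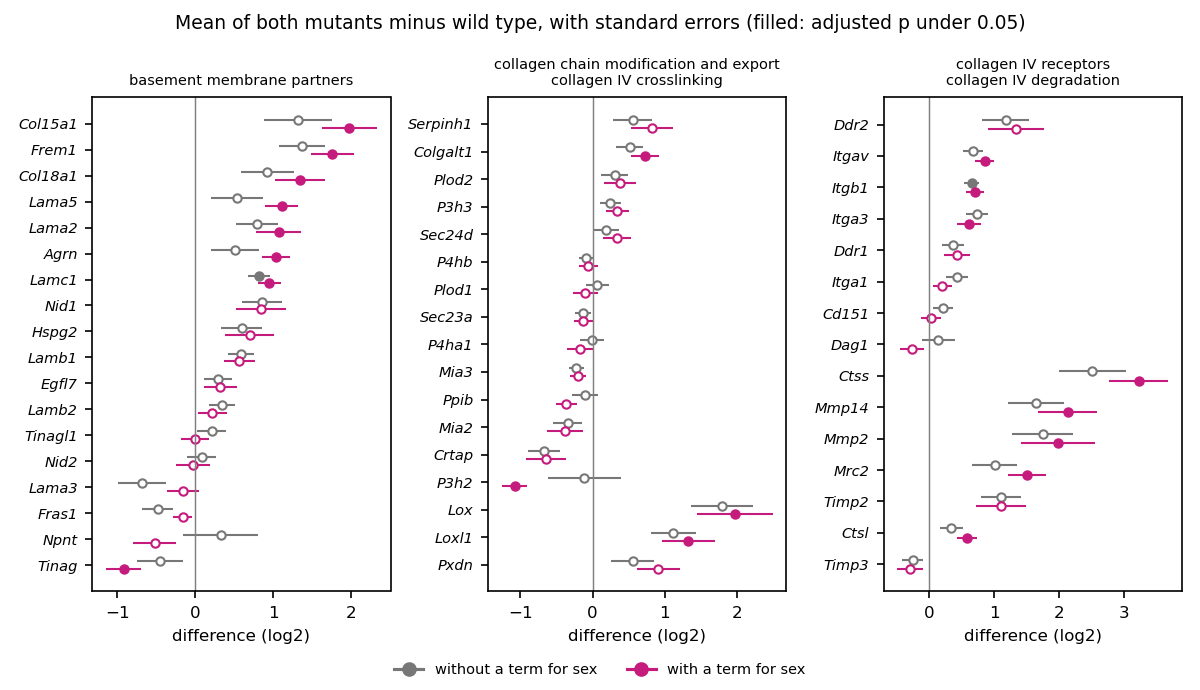
Differences (log2) of the mean of both mutants minus wild type for tested genes of 5 lists, with standard errors, without (grey) and with (magenta) a term for sex. Filled points passed at an adjusted p under 0.05. Lamc1 and Itgb1 passed in both fits.

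Markers of other cell types are given beside the chains. The mean of 14 fibroblast, pericyte and mesangial markers was 7.68, 8.67 and 7.99 in single mutants and 8.36, 8.54 and 8.09 in double mutants, against 6.92 and 6.997 in wild type. Of 11 tested, 3 were called higher over both mutants, the contractile genes Acta2 at 1.15 and Tagln at 1.34 and the filament gene Vim at 1.86, where 0.868% of genes were. With the term for sex 7 of 11 were called higher, where 8.69% of genes were, and the median was 1.46. The mean of 12 macrophage markers was 6.79, 8.29 and 6.79 in single and 7.50, 7.86 and 7.57 in double mutants, against 5.97 and 6.12 in wild type. Of 7 tested, Lyz2, the lysozyme of macrophages, was called higher at 3.25, and with the term for sex 6 of 7 were, with a median of 1.91. Single mutant 2 was the highest array for both lists, as for Col4a1 and Col4a2. Double mutant 1, the lowest mutant for Col4a1 and Col4a2, measured 8.36 for the fibroblast and 7.50 for the macrophage list. Double mutant 3, the second highest array for Col4a1, measured 8.09 and 7.57. The log2 of the summed signal spanned 12.03 to 13.30 in mutants and 11.13 to 11.29 in wild type for the fibroblast list, and 10.66 to 12.24 and 9.85 to 10.06 for the macrophage list. Smooth muscle markers had 2 of 5 tested called higher, both also in the fibroblast list, with a median of 0.68, and 3 of 5 with the term for sex. The part of any of these cell types in the values of Col4a1 and Col4a2 was not tested.

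Podocyte and endothelial markers come next, and the part of these cells in the values of the chains was not tested. The mean of 12 podocyte markers was 7.53, 7.20 and 7.69 in single and 7.62, 7.41 and 6.96 in double mutants, against 7.01 and 6.96 in wild type, and the log2 of the summed signal was 11.19 to 11.80 in mutants and 11.14 to 11.18 in wild type. All 7 tested podocyte markers were above wild type over both mutants, where 41.7% of tested genes were, with a median of 0.37, and none passed. Podxl, the sialoprotein podocalyxin, differed by 0.37 (SE 0.37) and Tcf21, a podocyte transcription factor, by 0.98 (SE 0.44). With the term for sex the median was 0.02 over both mutants, with 4 of 7 above wild type and none called. In the double mutant it was then -0.05, with 2 of 7 above wild type and 1 called higher, where 6.4% of genes were. Lmx1b, a transcription factor required for Col4a3 and Col4a4 expression in mouse podocytes, was below the filter at 5.75 to 5.94. The 12 endothelial markers, all tested, had a median of 0.16 and no call over both mutants. With the term for sex 2 of 12 were called lower, where 22.9% of genes were. These were Kdr and Ehd3, with differences of -0.84 and -1.39.

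**Figure D5:**
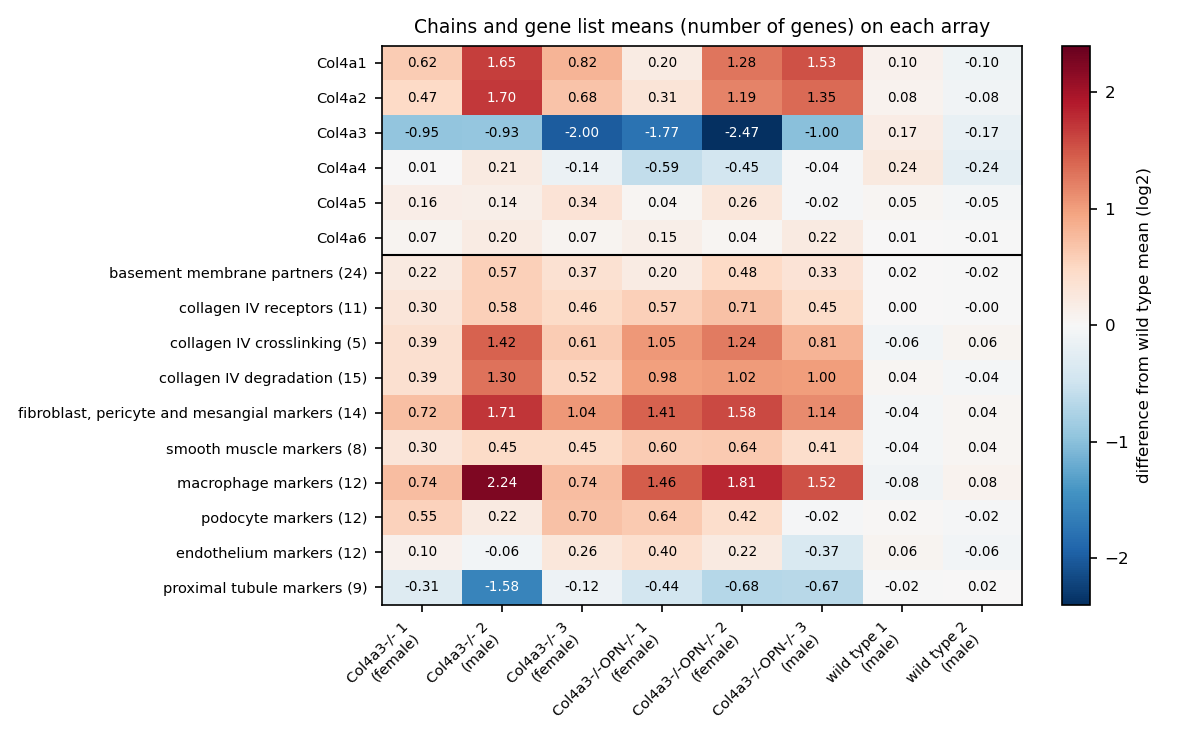
Difference from the wild type mean (log2) of each chain and of the mean of each gene list on every array, with the number of genes in brackets. Col4a1, Col4a2, fibroblast and macrophage rows are all highest in single mutant 2. The podocyte row is above 0 on 5 of 6 mutant arrays. Col4a3 is at -0.93 or lower on all 6.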

How the data were processed

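Total RNA of 8 kidneys was measured on 1 array each, although the labels name kits that are usual for small RNAs. The values that the authors deposited lie between 4.20 and 13.43, from which a log2 unit was inferred. How the authors summarized and normalized them is not stated in the labels. Of 33793 probe sets 23521 named 1 gene, 1814 several and 8458 none. For 1082 genes with several probe sets the one with the highest mean was kept. Coordinates and promoter windows are from RefSeq on GRCm38.p6.

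Genes above the 75th percentile of signal were compared in 1 model of the 3 groups with limma 3.58.1 in R 4.3.3 (5 residual degrees of freedom, 4 with the term for sex). Tests were two-sided. P-values were adjusted (Benjamini-Hochberg) over the 7145 genes, with calls under 0.05. The fit was tested on simulated data. Members and lists were chosen with earlier results of these data known. Named are all 6 chains, list genes that were called or, failing that, up to 4 with the largest differences over both mutants, and the 5 genes closest to each chain mean. Nphs1, Umod, Slc34a1, Lmx1b and Eif2s3y are given as markers, and Krt20 was chosen after its values were seen. The lists held 19 sets of basement membrane, collagen and cell type genes. The alternatives were other filters, normalizations, moderations, sample sets, a replicate block and the omission of each array. Precision is limited by the number of arrays. The osteopontin gene is not reported here. Plots were drawn with matplotlib 3.10.9.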

Additional observations from a re-analysis of the deposited data

How the results depend on the processing

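Each comparison was refitted with 1 choice changed at a time, and the fits that change a second choice beside the term for sex were added after seeing the data. Against wild type, 0 chains were called higher as reported, and 2 (Col4a1 and Col4a2) with the term for sex, among males alone (1 array of each mutant), and with that term under quantile normalization, median centring, cyclic loess or the replicate block, in the single mutant, the double mutant and over both. Without the filter and with the term for sex, 2 were called over both mutants and 0 in either mutant (adjusted p = 0.0510 to 0.0620 in limma). Leaving out 1 array at a time gave 0 to 2 chains called higher in each comparison with wild type, and 0 to 1 (Col4a3, without single mutant 1 and with the term for sex) called lower in the double mutant and over both. With that term, both calls in the single mutant ended without single mutant 2 (adjusted p = 0.138 and 0.155) or wild type 2 (0.0937 and 0.0857). In the double mutant both ended without wild type 2 (0.100 and 0.0892), and that of Col4a1 also without wild type 1 (0.0528) or double mutant 3 (0.0598). Among males alone 1 chain, Col4a3, was called lower in the single mutant and over both. The males-alone fits set 1 array of a mutant against 2 of wild type and assume that the lone array varies like the others, so they are no separate support for either mutant. The cause of these changes was not tested.

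The sign of some differences changed with the fit. Col4a4 went to -0.012 in the single mutant with the replicate block, and to 0.015 (quantile) and 0.022 (cyclic loess) in the double mutant with the term for sex. Over both mutants it was 0.089 with that term, among males alone and with that term but no filter, 0.22 with quantile normalization, 0.21 with cyclic loess, 0.044 with median centring and 0.13 with the replicate block, each with the term for sex. Col4a5 in the double mutant was -0.022 among males, and -0.047 with median centring and -0.049 with the replicate block, both with that term. Between the double and single mutants, Col4a1 was 0.022 among females, and Col4a2 was 0.17 among females and 0.0010 with cyclic loess, with or without the term. Leaving out arrays, with and without the term, gave -0.21 to 0.52 for Col4a4 in the single mutant, -0.60 to 0.14 in the double mutant and -0.41 to 0.33 over both, and -0.050 to 0.15 for Col4a5 in the double mutant. Between the mutants it gave -0.35 to 0.38 for Col4a1 and -0.30 to 0.38 for Col4a2.

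Of all tested genes, 2, 6 and 150 were called in the single mutant, the double mutant and over both. These counts were 1946, 1728 and 2254 with the term for sex, 1655, 727 and 2141 among males, and 7, 10 and 63 without the filter. The 50th percentile filter gave 16 in the double mutant, a fit of the compared groups alone gave 0 and 344 in the single and double mutant, and over both mutants quantile normalization gave 89 and every probe set 84. Leaving out 1 array gave 0 to 4, 0 to 590 and 0 to 477, with 0 over both mutants when wild type 1 or 2 was omitted, 2 or 3 without single mutant 1, double mutant 1 or double mutant 2, and 477 without single mutant 2. With the term for sex it gave 0 to 2147, 70 to 1635 and 129 to 2194, lowest without single mutant 2 in the single mutant and without wild type 2 otherwise. Deviations of same-numbered arrays had correlations from -0.58 to 0.26. The single and double mutants numbered 2, and those numbered 3, differ in sex, so these values cannot decide whether the numbers pair the mice. With the replicate block 0, 0 and 3 genes were called, and 1980, 1832 and 2125 with the term for sex as well. The median of all genes over both mutants with the term for sex was -0.15, and -0.05, -0.19 and -0.04 after quantile normalization, median centring and cyclic loess, where Col4a1 was 1.73, 1.55 and 1.72. The balance of glomerular to widespread chains stayed below wild type under quantile normalization, with Col4a6 included and with Col4a3 left out. Averaging every probe set could not change it, since each chain has 1. With 2 wild type arrays, both male, the spread of wild type is poorly known, and nothing states whether these mice were litter mates.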

Other observations

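All 9 tested proximal tubule markers were below wild type over both mutants, with a median of -0.50, and Slc22a6, an organic anion transporter, was called lower at -1.17 (SE 0.21, adjusted p = 0.0421 in limma), where 1.23% of genes were called lower. Their mean was 11.27, 10.00 and 11.45 in single and 11.13, 10.89 and 10.91 in double mutants, against 11.56 and 11.59 in wild type, and single mutant 2, the highest array for both chains, was the lowest here. Adjusted for sex, 6 of the 9 were called lower, where 22.9% of genes were, with a median of -1.17. The 6 tested markers of the loop and distal tubule had a median of 0.08 and no call, and with the term for sex a median of -0.41 with 2 called lower. For the 8 tested collecting duct markers the median was -0.23 with no call, and -0.68 with 4 called lower when adjusted for sex. Urothelium and pelvis markers had a median of 0.38 over 3 tested genes and no call, and 0.51 with 1 called higher when adjusted for sex, where 8.69% of genes were. The keratin Krt20, chosen after its values were seen, measured 6.74, 7.26 and 5.36 in single and 6.25, 9.14 and 8.87 in double mutants, against 4.83 and 4.76 in wild type. Krt7 and Upk1a of the same list differed by 0.38 and 0.25 over both mutants. With the term for sex these were 0.50 and -0.29, and neither gene passed in either fit. Of the fat markers 1 was tested, at 0.66, without passing.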
